A study of Setaria viridis with 24 samples.

Results

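The genes described here are 156 of the 20865 genes that had a value in all 8 groups of Setaria viridis, a small wild millet used as a model grass. These 156 stood lower under drought than under watering in each of 4 settings. The settings were the crown and the stem, each taken at 6 and at 9 days after sowing. The labels give the crown as the lower and the stem as the upper region of the plants. Members were selected on the group values themselves: a gene was kept when its drought to watered ratio, computed after 1 was added to every FPKM value, was at most 0.67 in all 4 settings and the highest of its 8 group values was at least 5 FPKM. FPKM is the number of sequenced fragments per kilobase of transcript and corrected for the number of mapped fragments, a scale on which genes of different length can be compared. Members made up 0.748% of all genes with values and 0.915% of the 17043 genes that reached 5 FPKM in a group. The opposite rule, with all 4 ratios raised by as much, was met by 61 genes.

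The plants belonged to 8 groups, formed by region (crown or stem), water supply (watered or drought) and harvest day (6 or 9). Each group had 3 libraries, 1 from each of 3 biological repeats, and 20 plants were pooled for every sample. All plants grew in the same kind of sand and peat mix, and the plant line, the age at which watering stopped and the degree of drying are not stated in the labels. Each group is represented by 1 FPKM value that the authors derived from its libraries, so the values below carry no standard deviation and the depth of a library is unknown. The tissue was whole crown or stem, in which fewer cells of a type and less RNA per cell cannot be told apart. Because the files attach no description to any gene, the labelled regions could not be checked against known marker genes, and no function can be given for any member.

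In grasses most of the adult root system is shoot-borne: roots start from the nodes of the crown rather than from the embryonic root. Their outgrowth depends on water near the soil surface, and in dry soil crown root buds of Setaria and other grasses are known to stop growing early. Plants under water shortage are also known to lower transcripts for growth and for water and nutrient uptake while raising protective ones. A group of genes lower under drought in both regions and on both days therefore bears on the question of what the shoot base has in common in its reaction to drought.

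The 4 drought comparisons chose the members, so the values in this and the next 4 paragraphs describe them and test nothing. The median member stood at 7.37 FPKM in watered and 2.88 FPKM in drought crowns at day 6. At day 9 the medians were 16.9 and 6.33 FPKM in the crown. In the stem they were 8.51 and 4.16 FPKM at day 6, and 9.90 and 3.55 FPKM at day 9. Among all genes that reached 5 FPKM the median lay between 13.4 and 14.3 FPKM in every group. The watered day 9 crown was thus the only group in which the median member exceeded the median of those genes, and the highest of a member's 8 values fell in that group for 104 of the 156 genes. For 42 others it fell in the watered day 6 stem, for 5 in the watered day 6 crown and for 5 in the watered day 9 stem.

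**Figure D1:**
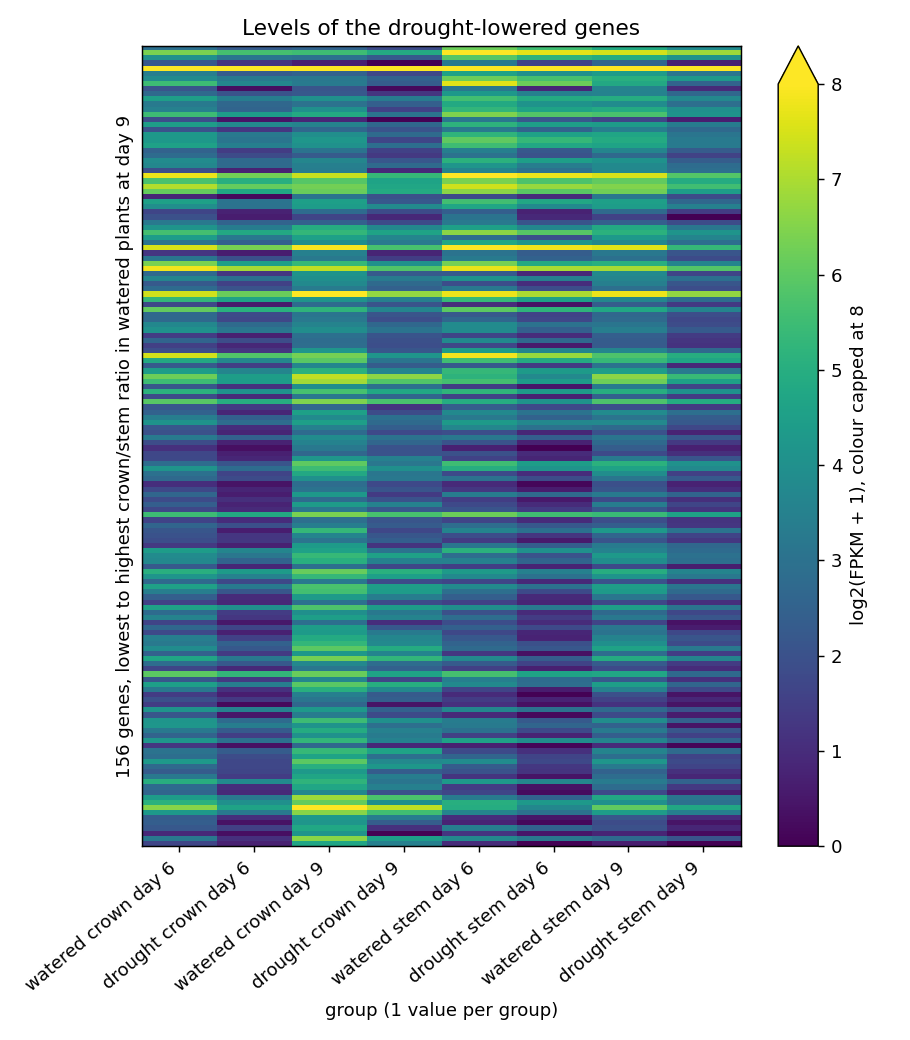
Levels of the 156 drought-lowered genes as log2(FPKM + 1) in the 8 groups, 1 value per group, with genes ordered from the lowest (top) to the highest (bottom) crown to stem ratio in watered plants at day 9. The colour is capped at 8, below which drought columns are darker than the watered columns to their left, and the watered day 9 crown is the brightest column for 104 genes.

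The size of the difference varied by setting. On the log2 scale of FPKM + 1, the median drought to watered difference of the members was -0.996 in day 6 crowns and -1.10 in day 9 crowns. In the stem the values were -0.78 and -1.10 on those days. Over all genes that reached 5 FPKM it was -0.04 in the day 6 crown and -0.02 in each of the other settings. The difference was largest in the day 9 stem for 62 members and in the day 9 crown for 53, against 29 in the day 6 crown and 12 in the day 6 stem. It was smallest in the day 6 stem for 74 members. The lowest single value was a difference of -4.13 in the day 9 crown, that of Sevir.1G114800 (chromosome 1, 9931985 to 9933775), which stood at 16.5 FPKM in watered plants and was listed at 0 under drought. A ratio of 0.5 or less was reached by 76 members at day 6 and 92 at day 9 in the crown, by 37 and 98 in the stem, and by 14 members in all 4 settings.

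**Figure D2:**
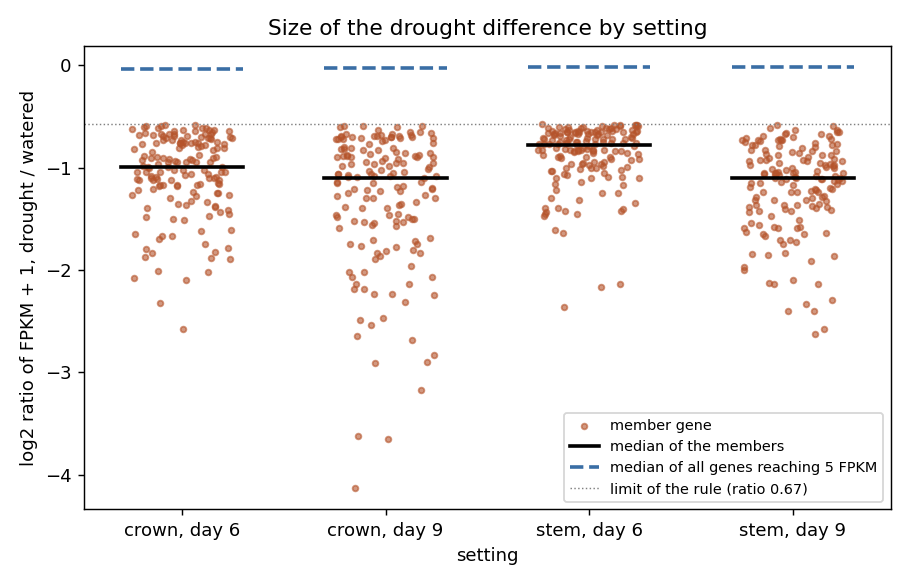
Drought to watered difference of each member (points, log2 ratio of FPKM + 1) in the 4 settings, with the median of the members (black bar), the median of all genes reaching 5 FPKM (dashed bar) and the limit of the rule (dotted line). All points lie under the dotted line because the rule placed them there, and the member medians run from -1.10 to -0.78.

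A place in the set did not require a call by the authors' own test. In the authors' deposited table for the day 6 crown, 76 of the 142 members listed there passed a q of 0.05 as lower under drought, where 1.58% of all listed genes did. The authors' deposited table for the day 9 crown called 99 of 153 members lower (4.17% of all genes). For the stem, the authors' deposited tables called 39 of 130 at day 6 (0.916% of all genes) and 98 of 149 at day 9 (2.37% of all genes). The same 4 contrasts formed the rule, so nothing is read from these shares. Over the authors' deposited tables, 18 members were called lower in all 4 settings, 44 in 3, 41 in 2, 26 in 1 and 27 in none. No gene outside the set was called in all 4, but of the 127 genes called lower in at least 3 settings only 62 were members. Only 122 of the members were listed in all 4 settings, so the others could not be called in all 4. The label of a gene lowered in every setting therefore rests on the level in all 156 and on the authors' test in 18. Adjusting the deposited p-values within each table alone left 2 of the 18, and a q limit of 0.01 left 4.

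**Figure D3:**
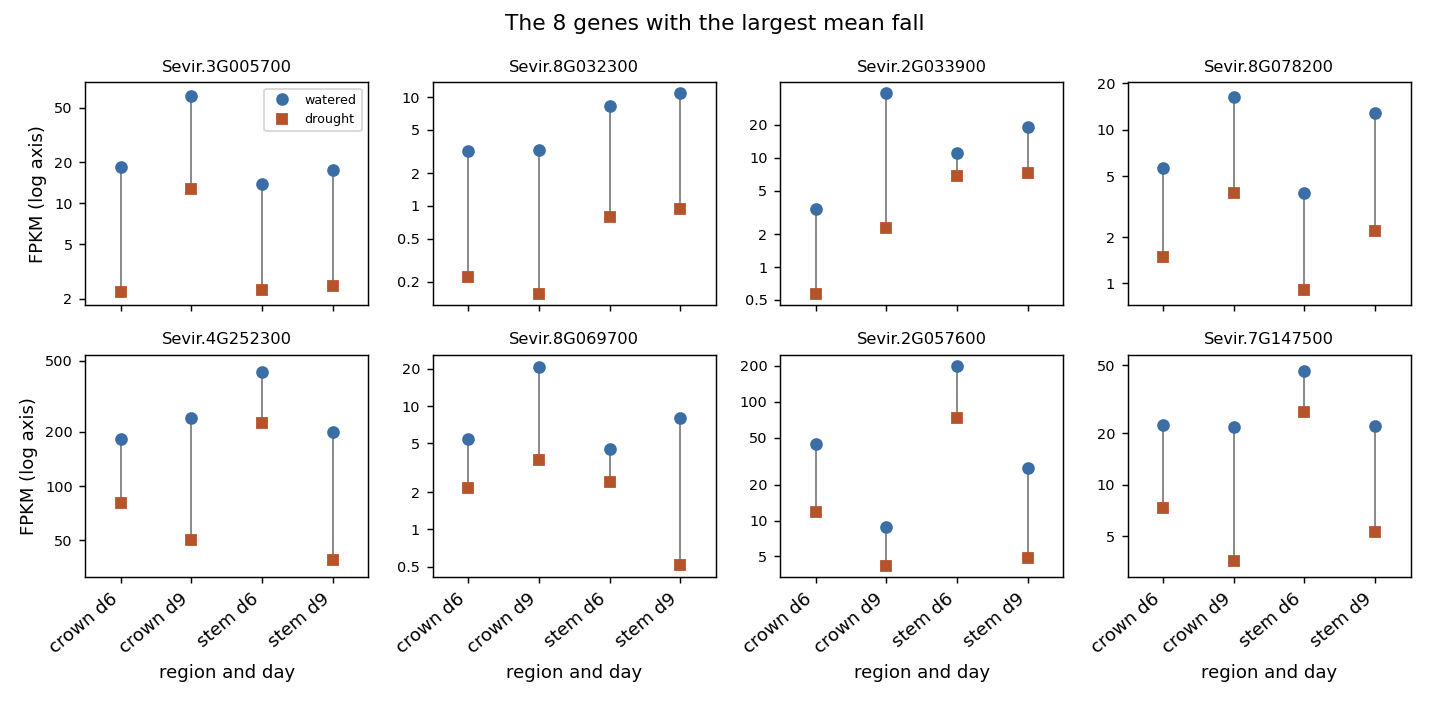
FPKM (log axis) of the 8 members with the largest mean difference, in watered (circles) and drought (squares) groups, with crown and stem at day 6 (d6) and day 9 (d9) on the x axis and 1 value per group. In each panel and setting the square lies under the circle, as for Sevir.3G005700 with 61.7 and 12.7 FPKM in the day 9 crown.

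The largest mean difference over the 4 settings was that of Sevir.3G005700 (chromosome 3, 344049 to 345380), at -2.33 on the log2 scale of FPKM + 1. It stood at 18.4 FPKM in watered and 2.26 FPKM in drought crowns at day 6, and at 61.7 and 12.7 FPKM at day 9. Its stem values were 13.9 and 2.31 FPKM at day 6, and 17.5 and 2.50 FPKM at day 9. All 4 drought values were below all 4 watered values, and in the authors' deposited tables it was called lower 4 times, with q between 0.00091 and 0.00235.

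Sevir.8G032300 (chromosome 8, 2232737 to 2233547) came next, at a mean of -2.17, and was nearly lost under drought. It stood at 3.19 FPKM in watered and 0.220 FPKM in drought crowns at day 6, and at 3.29 and 0.154 FPKM at day 9. In the stem it stood at 8.26 and 0.797 FPKM at day 6, and at 10.98 and 0.942 FPKM at day 9. The groups did not overlap, yet the authors' deposited tables called the stem differences only (q = 0.0219 and 0.0126) and not those of the crown (q = 0.551 and 0.509), where its watered level was lower.

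The third gene, Sevir.2G033900 (chromosome 2, 2738638 to 2739502), showed its difference mainly in the day 9 crown, at 39.1 FPKM watered and 2.26 FPKM under drought. Its other pairs were 3.37 and 0.564 FPKM in the day 6 crown, 11.1 and 6.73 FPKM in the day 6 stem and 18.9 and 7.20 FPKM in the day 9 stem. Here watered and drought values overlapped, since the day 6 crown was low in both. Sevir.8G078200 (chromosome 8, 8154728 to 8156490) was more even, with 5.62 and 1.48 FPKM in the day 6 crown, 16.3 and 3.85 FPKM in the day 9 crown, 3.85 and 0.907 FPKM in the day 6 stem and 12.9 and 2.19 FPKM in the day 9 stem. Its highest drought value, in the day 9 crown, met its lowest watered value, in the day 6 stem. It was called lower in all 4 settings in the authors' deposited tables (q from 0.00091 to 0.0162).

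Sevir.4G252300 (chromosome 4, 35868832 to 35872119) was both among the largest differences and among the most abundant members. Its watered and drought values were 183 and 80.9 FPKM in the day 6 crown, and 240.2 and 50.2 FPKM in the day 9 crown. In the stem they were 432 and 224 FPKM at day 6, and 199.7 and 38.9 FPKM at day 9. The day 6 stem under drought was thus above 2 of the 3 other watered values, while both drought values of day 9 lay far below every watered value. The authors' deposited tables called it lower in all 4 settings, with log2 fold changes of -2.26 and -2.36 at day 9 and of -1.18 and -0.95 at day 6 in crown and stem.

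Sevir.7G147500 (chromosome 7, 21882623 to 21885290) was likewise highest in the day 6 stem, at a lower level. It stood at 22.5 and 7.29 FPKM in watered and drought crowns at day 6, 21.9 and 3.61 FPKM at day 9, 46.3 and 26.8 FPKM in day 6 stems and 22.0 and 5.32 FPKM in day 9 stems. Sevir.2G057600 (chromosome 2, 4524401 to 4525226) was also highest in the day 6 stem, with 199.6 FPKM watered and 72.3 FPKM under drought. In the day 9 stem it stood at 27.7 and 4.84 FPKM. Its crown values were 44.1 and 11.8 FPKM at day 6, and 8.78 and 4.18 FPKM at day 9, the 1 setting of 4 in which the authors' deposited table did not call it (q = 0.152). Sevir.8G069700 (chromosome 8, 6853711 to 6855701) was furthest apart in the day 9 stem, at 8.00 and 0.513 FPKM, and in the day 9 crown, at 20.9 and 3.62 FPKM. At day 6 it stood at 5.41 and 2.15 FPKM in the crown and at 4.46 and 2.43 FPKM in the stem.

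The 18 members that the authors' deposited tables called lower in all 4 settings had mean differences from -2.33 to -0.95 and a median highest value of 46.5 FPKM. For 14 of them the highest value was that of the watered day 9 crown. Besides Sevir.3G005700, Sevir.4G252300, Sevir.7G147500 and Sevir.8G078200, the 18 included Sevir.5G228600, Sevir.8G125400, Sevir.8G125600 and Sevir.8G210500, described below. The 27 members called in no setting had mean differences from -1.44 to -0.65 and a median highest value of 8.44 FPKM. They also included the most abundant member of all. Sevir.3G146000 (chromosome 3, 10103512 to 10104307) stood at 993 and 599 FPKM in watered and drought crowns at day 6, 509 and 317 FPKM at day 9, 3719.8 and 2373.9 FPKM in day 6 stems and 1919.7 and 1240.2 FPKM in day 9 stems. Its log2 fold changes in the authors' deposited tables lay between -0.73 and -0.63, with q from 0.097 to 0.381.

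Abundance among the members reached from a highest value of 5.28 FPKM to that of Sevir.3G146000, with a median of 21.7 FPKM, and 13 genes reached 100 FPKM. Sevir.9G323200 (chromosome 9, 35348410 to 35351415) stood at 214 and 77.8 FPKM in watered and drought day 6 crowns, 160.3 and 40.4 FPKM in day 9 crowns, 322 and 214 FPKM in day 6 stems and 182 and 57.4 FPKM in day 9 stems. Sevir.1G116500 (chromosome 1, 10076463 to 10079016) kept nearly level watered values in the stem, 215 and 216 FPKM at days 6 and 9, beside 124 and 104 FPKM under drought. Its crown values were 171 and 70.5 FPKM at day 6 and 288 and 102 FPKM at day 9, so that none of its drought values reached any watered value. The groups of Sevir.5G112300 (chromosome 5, 8898923 to 8900704) overlapped narrowly. It stood at 225 and 120.0 FPKM in day 6 crowns, 149 and 56.0 FPKM in day 9 crowns, 209.6 and 124 FPKM in day 6 stems and 121 and 57.4 FPKM in day 9 stems.

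At the limit of the rule, values were close on both sides. The least lowered ratio was 0.669739 for Sevir.4G296300, 0.668808 for Sevir.3G194800 and 0.668737 for Sevir.2G210300, which were members. It was 0.670304 for Sevir.2G281200, 0.670619 for Sevir.9G187300 and 0.670715 for Sevir.8G258000, which were not. The least lowered setting was the stem at day 6 in 5 of these 6 and the stem at day 9 in Sevir.8G258000. Values there were close too, as in Sevir.4G296300 with 86.6 FPKM watered and 57.6 FPKM under drought, or Sevir.9G187300 with 239.6 and 160.4 FPKM. Without any limit on size, 3736 of the 17043 genes that reached 5 FPKM were lower in all 4 drought groups and 2670 were higher in all 4.

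The rule did not use the difference between crown and stem, which was compared next in watered and in drought plants. The groups in these comparisons are nevertheless the same that the rule read. At day 6 the levels of the members split evenly between the regions, with 78 higher and 78 lower in the crown of watered plants and 72 higher and 84 lower under drought, while the calls were mostly on the stem side. Of 148 members in the authors' deposited table for watered plants, 34 were called lower in the crown (23.0%, beside 12.3% of all genes listed) and 15 higher (10.1%, beside 8.3%). Under drought the authors' deposited table called 34 of 106 lower in the crown (32.1%, beside 10.7%) and 4 higher (3.77%, beside 6.44%). The number called lower in the crown was thus the same under both supplies. Not listed were 50 members under drought and 8 in watered plants, so the shares rest on different sets of members. The median crown to stem difference was 0.01 in watered and -0.06 in drought plants on the log2 scale of FPKM + 1, against 0.03 and 0.01 over all genes reaching 5 FPKM.

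At day 9 the members leaned to the crown. In watered plants the authors' deposited table called 67 of 154 members higher in the crown (43.5%, beside 12% of all genes listed) and 12 lower (7.79%, beside 6.88%). Under drought 56 of 145 were higher in the crown (38.6%, beside 11.6%) and 13 lower (8.97%, beside 6.64%) in the authors' deposited table. The median crown to stem difference of the members was 0.83 in watered and 0.71 in drought plants, and that of all genes reaching 5 FPKM was 0.02 and 0.00. The crown had the higher watered level in 125 of the 156 members and the higher drought level in 112. Whether the region difference of the members changed from day 6 to day 9 beyond the error between libraries was not tested, because that takes library values.

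**Figure D4:**
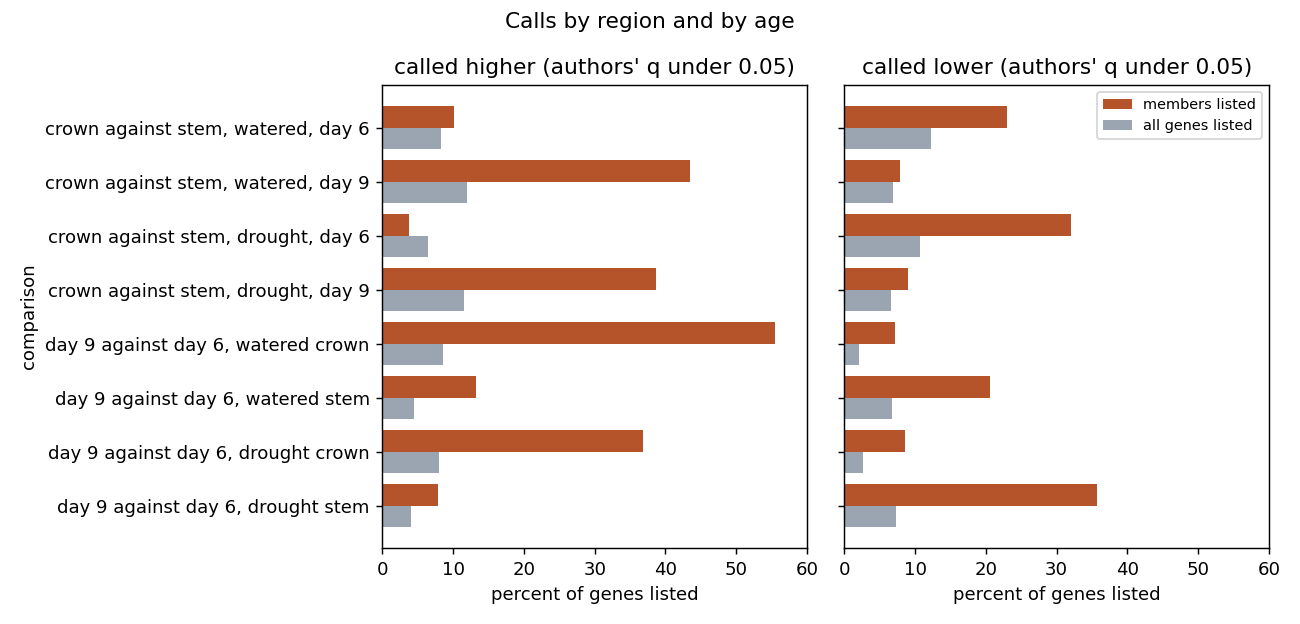
Percent of the listed members (orange bars) and of all listed genes (grey bars) that the authors called higher (left) or lower (right) at a q under 0.05, for 4 comparisons of crown with stem and 4 of day 9 with day 6. The longest bar is the 55.5% of members called higher at day 9 than at day 6 in watered crowns, beside 8.56% of all genes.

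Watered and drought plants, which share no library, had part of their region calls in common. The rule read the values of both supplies together, so the overlaps describe the members and were not tested against those of all genes. Of the day 9 calls in the authors' deposited tables, 46 genes were higher in the crown under both supplies, 68.7% of the watered list and 82.1% of the drought list, where over all genes the shares were 63% and 64.4%. On the stem side at day 6, 28 genes were called under both, 82.4% of either list, close to the 74.4% and 85.5% over all genes. The other patterns shared fewer genes. At day 6, 3 genes were called higher in the crown under both supplies. These were 20% of the watered and 75% of the drought list, beside 53.8% and 69.9% over all genes. At day 9, 6 genes were called lower in the crown under both. These were 50% and 46.2% of the lists, beside 71.4% and 73.3% over all genes. No member was called in opposite directions by water supply on either day. No count over all genes stands beside this, and nothing is read from it. In the authors' deposited tables for watered plants, 12 members were called higher in the crown on both days, 10 higher in the stem on both days, and 3 switched from a stem call at day 6 to a crown call at day 9. Of the members listed on both days these were 8.22%, 6.85% and 2.05%, and over all genes the same patterns held for 3.59%, 5.82% and 0.193%.

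The 12 crown genes included Sevir.8G210500 (chromosome 8, 34571967 to 34573089), the most abundant of them. It stood at 91.8 FPKM in watered crowns and 29.8 FPKM in watered stems at day 6, and at 289.9 and 65.4 FPKM at day 9. Under drought the crown and stem values were 24.0 and 12.0 FPKM at day 6, and 149.8 and 26.3 FPKM at day 9. The crown was above the stem in each of the 4 pairs, with log2 fold changes of 1.62 and 2.15 in watered and of 1.01 and 2.51 in drought plants in the authors' deposited tables, of which the drought difference at day 6 was not called (q = 0.0708). Sevir.7G222200 (chromosome 7, 27159649 to 27170756), whose position entry is shared with another gene, had 7.23 and 2.44 FPKM in watered crowns and stems at day 6 and 39.6 and 11.3 FPKM at day 9.

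The 10 stem genes included Sevir.3G146000, given above, and Sevir.2G227200 (chromosome 2, 31024050 to 31025614), which had the lowest crown to stem ratio in watered plants at day 9. The latter stood at 73.0 FPKM in watered stems and 6.81 FPKM in watered crowns at day 6, and at 27.8 and 4.81 FPKM at day 9. Under drought its stem values were 45.9 and 13.6 FPKM and its crown values 3.94 and 2.56 FPKM. Sevir.9G204800 (chromosome 9, 14560402 to 14562962) stood at 311 and 179 FPKM in watered stems and at 82.9 and 44.6 FPKM in watered crowns on days 6 and 9. Its drought values were 203 and 113 FPKM in the stem and 48.9 and 28.9 FPKM in the crown. Sevir.9G004800 (chromosome 9, 274491 to 276149), at 59.0 and 29.5 FPKM in watered stems and 15.5 and 6.84 FPKM in watered crowns, was called lower under drought in 3 of the 4 settings in the authors' deposited tables. Sevir.7G040500 (chromosome 7, 10888536 to 10888907) was low throughout, with 8.40 and 5.23 FPKM in watered stems and 3.57 and 0.638 FPKM in watered crowns, and neither of its region differences listed for watered plants was called in the authors' deposited tables.

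The members with the highest watered crown to stem ratio at day 9 had low stem levels at that age. Sevir.9G295900 (chromosome 9, 31514393 to 31514924) stood at 25.1 FPKM in watered and 10.2 FPKM in drought day 9 crowns, at 0.546 FPKM in watered day 9 stems, and was listed at 0 in drought stems on both days. In the authors' deposited tables its day 9 crown to stem difference was not called in watered plants (q = 0.235) and was called under drought (q = 0.00091), where the stem was at 0. Sevir.3G194800 (chromosome 3, 14194996 to 14196543) stood at 93.9 FPKM in the watered crown and 5.94 FPKM in the watered stem at day 9, and at 20.6 and 3.35 FPKM under drought. Its log2 fold changes between crown and stem in the authors' deposited tables were 3.98 and 2.62, both at q = 0.00091. Sevir.1G114800 had 16.5 FPKM in the watered day 9 crown and at most 1.33 FPKM in the 7 other groups.

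By age, the crown calls were mostly of members higher at day 9. From day 6 to day 9 in watered crowns, the authors' deposited table called 86 of 155 members higher (55.5%, beside 8.56% of all genes listed) and 11 lower (7.10%, beside 2%). Under drought 52 of 141 were higher at day 9 (36.9%, beside 7.97%) and 12 lower (8.51%, beside 2.59%) in the authors' deposited table. The median day 9 to day 6 difference was 1.11 in watered and 0.72 in drought crowns on the log2 scale of FPKM + 1, against 0.00 and 0.01 over all genes reaching 5 FPKM. The watered comparison uses the day 9 crown value that the rule also read, and the part of this shared value in the share of 55.5% was not tested.

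In the stem more members were called lower than higher at day 9, which also held over all genes listed. By level, 85 members stood higher and 71 lower at day 9 in watered stems, and 69 higher and 86 lower in drought stems. The authors' deposited table called 20 of 151 members higher at day 9 in watered stems (13.2%, beside 4.41%) and 31 lower (20.5%, beside 6.76%). In drought stems 9 of 115 were higher (7.83%, beside 4.08%) and 41 lower (35.7%, beside 7.3%) in the authors' deposited table. Not listed were 41 members in drought stems and 5 in watered stems, so these shares also rest on different sets of members. The median difference was 0.10 in watered and -0.13 in drought stems, and over all genes reaching 5 FPKM it was -0.03 and -0.01. The authors' deposited tables for watered plants called 18 members higher at day 9 in both regions, 8 lower in both, and 7 that rose in the crown but fell in the stem, while 0 did the reverse. These were 12%, 5.33%, 4.67% and 0% of the members listed in both tables, beside 1.3%, 1.01%, 0.365% and 0.0627% of all genes. Of the crown genes rising with age in the authors' deposited tables, 50 were called both with and without drought, which is 58.1% of the watered and 96.2% of the drought list, beside 47.7% and 51% over all genes. Of the stem genes falling with age in the authors' deposited tables, 31 were called both with and without drought, 100% of the watered and 75.6% of the drought list, beside 64.4% and 59.4% over all genes. Since the rule read all these groups, the shares describe the members and were not tested against those of all genes.

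The 4 largest age ratios in watered crowns were those of Sevir.3G194800, Sevir.1G114800, Sevir.2G033900 and Sevir.9G058000. Sevir.3G194800 went from 8.29 to 93.9 FPKM in watered and from 1.17 to 20.6 FPKM in drought crowns, while its stem values went from 12.7 to 5.94 FPKM and from 8.18 to 3.35 FPKM. In the authors' deposited tables the log2 fold changes with age were 3.502 and 4.13 in watered and drought crowns and -1.10 and -1.29 in the stems, all 4 called. Sevir.9G058000 (chromosome 9, 3395827 to 3397023) went from 6.07 to 63.2 FPKM in watered crowns, for which the authors' deposited table gives 3.38 on the log2 scale at q = 0.00091. In drought crowns it went from 3.18 to 8.00 FPKM, which the authors' deposited table did not call (q = 0.0725), and its watered stem values were 45.0 and 33.7 FPKM. The difference between watered and drought age changes was not tested.

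Sevir.4G145200 (chromosome 4, 18984579 to 18986330) had the same crossing of regions in watered plants. It rose from 3.60 to 26.1 FPKM in the crown and fell from 9.47 to 2.97 FPKM in the stem, and the authors' deposited tables put these log2 changes at 2.86 and -1.67 (q = 0.00091 and 0.0126). Under drought it stood at 1.85 and 1.15 FPKM in the crown and 4.66 and 0.814 FPKM in the stem on days 6 and 9, and the crown rise of watered plants was not seen in these levels.

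Members that were lower at day 9 in both regions formed the opposite end. Sevir.3G270500 (chromosome 3, 22193824 to 22198204) stood at 174 and 80.1 FPKM in watered crowns on days 6 and 9, beside 233 and 53.7 FPKM in watered stems. Under drought it went from 56.4 to 16.8 FPKM and from 109 to 30.8 FPKM, and all 4 age differences were called in the authors' deposited tables. Sevir.8G229100 (chromosome 8, 36770217 to 36770713) stood at 40.1 and 12.1 FPKM in watered stems on days 6 and 9 and at 22.2 and 6.24 FPKM in drought stems, and both differences were called (q = 0.00167 and 0.00728 in the authors' deposited tables). Its crown values were 38.0 and 16.7 FPKM in watered and 23.3 and 9.97 FPKM in drought plants, called in the former only (q = 0.0323, against 0.052, in the authors' deposited tables). Sevir.9G415800 (chromosome 9, 44281323 to 44284461) fell in watered stems from 33.3 to 10.7 FPKM (log2 fold change -1.64 in the authors' deposited table, q = 0.00091) and stood at 20.5 and 23.0 FPKM in watered crowns.

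The largest age ratios in watered stems belonged to genes that also rose in the crown. Sevir.5G228600 (chromosome 5, 27486384 to 27494139) rose from 2.45 to 14.1 FPKM in watered stems and from 6.97 to 27.3 FPKM in watered crowns, with 2.53 and 1.97 as log2 changes in the authors' deposited tables (both q = 0.00091). Under drought it had 1.03 and 1.87 FPKM in stems and 2.10 and 7.77 FPKM in crowns on days 6 and 9, in each case below the watered value of the same day. Sevir.6G129700 (chromosome 6, 21926117 to 21930070) stood at 2.09 and 10.6 FPKM in watered stems and at 8.29 and 31.5 FPKM in watered crowns. The authors' deposited tables called its change with age in the crown (q = 0.00091) and not in the stem (q = 0.303). Sevir.4G105800 (chromosome 4, 9522246 to 9523212) stood at 1.72 and 8.82 FPKM in watered stems and 3.45 and 14.5 FPKM in watered crowns, both called in the authors' deposited tables (q = 0.0453 and 0.00359).

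The older drought groups were also set against the younger watered ones. The rule chose members low in the former and high in the latter, each against its own partner, so part of what follows was preset and it is given as a description. Across the 156 genes the drought day 9 crown was below the watered day 6 crown in 93 and above it in 63, with a median difference of -0.31 on the log2 scale of FPKM + 1, against 0.01 over all genes reaching 5 FPKM. The authors' deposited table called 45 of 150 lower (30%, beside 5.64%) and 13 higher (8.67%, beside 8.35%). In the stem 144 were below and 12 above, the median was -0.99 against -0.04, and the authors' deposited table called 74 of 133 lower (55.6%, beside 12.8%) and 0 higher (beside 8.27%). Drought and age both differ between these groups and cannot be told apart in them.

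Positions were not part of the rule. Members lay on all 9 chromosomes, with 26 each on chromosomes 3 and 9, 22 on chromosome 5, 19 on chromosome 8 and 2 on scaffolds. As a share of the genes with values, chromosome 8 held the most, 1.59% of 1193 genes, followed by chromosome 3 with 1.01% of 2572, and chromosome 2 the fewest, 0.460% of 2606. The span from the start to the end of a gene, introns included, was short. For the 151 members with a position entry of their own the median was 2153 bases (quartiles 1420 and 3334.5). The median over genes that reached 5 FPKM was 3593 bases (quartiles 2224 and 5184), and over those whose highest value lay between the members' quartiles of abundance it was 3945 bases.

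Some members were neighbours. With at most 100000 bases between one member and the next, 34 of the 156 fell into 16 clusters, of which 2 held 3 genes and 14 held 2. In 8 pairs, made of 15 genes, no other gene with a value lay between the members. The 61 genes of the opposite rule had 8 genes in 3 such clusters, but that set is smaller. How many clusters an equal number of other genes would form was not tested. Whether neighbouring members are copies of one another, and so could share reads, was not tested, since no sequence was at hand.

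**Figure D5:**
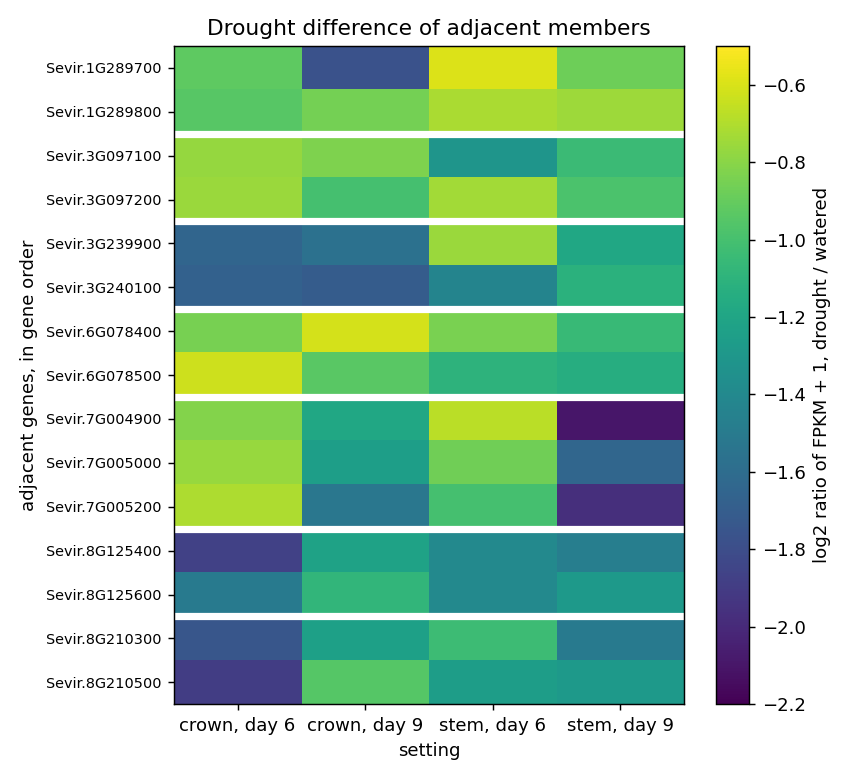
Drought to watered difference (colour, log2 ratio of FPKM + 1) in the 4 settings for the 15 members that are adjacent in gene order, with white lines between the separate groups of neighbours. The 3 genes on chromosome 7 are darkest in the day 9 stem, and the 2 pairs on chromosome 8 are darkest in the day 6 crown.

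The 3 adjacent genes on chromosome 7 lay between 862977 and 886872. Sevir.7G005200 stood at 62.7 and 37.9 FPKM in watered and drought day 6 crowns, 70.8 and 23.9 FPKM in day 9 crowns, 49.4 and 24.2 FPKM in day 6 stems and 25.6 and 5.79 FPKM in day 9 stems. Sevir.7G005000 had 27.2 and 8.07 FPKM in day 9 stems, and Sevir.7G004900 had 4.67 and 0.326 FPKM there. In all 3 the day 9 stem had the largest drought difference. The authors' deposited table called it in Sevir.7G005200 and Sevir.7G005000 (q = 0.00091 and 0.00235) and not in Sevir.7G004900 (q = 0.555).

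Both adjacent pairs on chromosome 8 belonged to the 12 genes that were higher in the crown on both days. Sevir.8G125400 (21579714 to 21584277) stood at 9.69 and 1.92 FPKM in watered and drought day 6 crowns and at 29.0 and 11.8 FPKM in day 9 crowns. In stems it stood at 3.58 and 0.739 FPKM at day 6 and at 10.98 and 3.31 FPKM at day 9. Sevir.8G125600 (21630837 to 21633671) ran parallel at a higher level, with 25.1 and 8.16 FPKM, 79.9 and 37.2 FPKM, 12.6 and 4.17 FPKM and 29.6 and 11.6 FPKM in the same order. In the other pair, Sevir.8G210300 (34547125 to 34551618) had 5.99 and 1.08 FPKM in day 6 crowns and 25.5 and 10.3 FPKM in day 9 crowns, beside the values of Sevir.8G210500 given above. The 4 genes were all called higher at day 9 in watered crowns and in watered stems in the authors' deposited tables, where their log2 changes ranged over 1.58 to 2.09 for the crown and 1.13 to 1.86 for the stem.

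The remaining adjacent pairs were less abundant. On chromosome 3, Sevir.3G239900 and Sevir.3G240100 stood at 9.33 and 12.1 FPKM in watered day 9 crowns, at 2.50 and 3.00 FPKM under drought, and at most 2.49 FPKM in stems of either supply. Also on chromosome 3, Sevir.3G097100 and Sevir.3G097200 had 8.96 and 8.00 FPKM in watered day 9 crowns and 4.60 and 3.504 FPKM under drought. On chromosome 6, Sevir.6G078400 and Sevir.6G078500 had 8.05 and 6.28 FPKM there in watered plants and 4.94 and 2.81 FPKM under drought. On chromosome 1, Sevir.1G289700 and Sevir.1G289800 had 5.47 and 13.2 FPKM in watered day 9 crowns and 0.899 and 6.83 FPKM under drought. The authors' deposited table did not call this day 9 crown difference in Sevir.3G097200, Sevir.6G078400 and Sevir.6G078500 (q = 0.0883, 0.226 and 0.0653). It was called lower under drought in the other genes of these pairs.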

How the data were processed

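The data were 28 tables made by the authors, 1 for each pair of 8 groups. Per the file headers, each deposited table gives the FPKM of both groups, their log2 fold change, a test statistic (a score), a p-value and a q-value. Cuffdiff, FastQC and cutadapt are listed as tools in the submitters' processing notes. No aligner, genome build or tool version is given in the sources used here. A group had the same deposited FPKM in all its tables (0 differing values), and the deposited q-values matched, within 5.3e-07, those from adjusting all 531416 p-values of the 28 tables together by Benjamini-Hochberg. Tables listed 17795 to 20009 genes, and a member missing from a table was not counted there.

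Members were found with Python 3.11.15 and pandas 2.3.3 by the rule given in the results, which was tested on simulated data. Log2 fold changes were turned to read drought over watered, crown over stem and day 9 over day 6. A called gene has the authors' q under 0.05. Members, lists and tests were chosen with earlier results of these data known. Named genes were by rule the 8 largest mean differences, the 8 highest levels, the 4 highest and 4 lowest ratios by region and by age in watered plants, the genes nearest the limit, adjacent members and, if 10 or fewer, those called in all 4 settings, which did not apply. Coordinates follow the files' own gene models. Looked up in the RefSeq table of 34587 genes, 0 identifiers were found, so planned lists by gene description had no members and no sequence is shown.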

Additional observations from a re-analysis of the deposited data

How the results depend on the processing

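The number of members depended on the rule. It was 156 as reported, 266 with a pseudocount of 0.1 FPKM, 40 with a pseudocount of 5 FPKM, 14 with a ratio limit of 0.5, 640 with a limit of 0.8 and 81 with a highest value of at least 20 FPKM. Without a minimum it was 167, and with ratios centred on the median gene 144, all among the 156. For the opposite rule (61 genes) a pseudocount of 5 FPKM gave 25, limits of 0.5 and 0.8 gave 30 and 224, and a highest value of at least 20 FPKM gave 32. At a q of 0.01 the members called under drought fell to 40 and 61 in the crown at days 6 and 9 (from 76 and 99), and to 16 and 53 in the stem (from 39 and 98). At that limit, 28 rather than 49 were called between watered crown and stem at day 6, 29 rather than 51 by age in watered stems and 41 rather than 64 by age in drought crowns. Adjusted within each table alone, the drought calls numbered 25 for crowns and 5 for stems at day 6 and 53 for stems at day 9. A stricter limit lowers a count by construction. The adjustment within tables used the same p-values and differed only in which of them were adjusted together. How the other tables moved these counts was not tested. Called in all 4 drought settings were 4 members at a q of 0.01, 2 with adjustment within tables and 12 with at least a 2-fold change, against 18, a check chosen after seeing the data. The other settings moved no total of calls by more than 1.5 times, but small counts in 1 direction moved: at a q of 0.01, those lower with age in watered crowns went from 11 to 2 and in drought crowns from 12 to 6, those higher with age in drought stems from 9 to 5, those higher in drought crowns than stems at day 6 from 4 to 1, and those lower at day 9 from 13 to 8. Of these, a 2-fold minimum gave 6 for the watered crowns and 2 for the drought crowns at day 6. The watered day 6 crown-higher count went from 15 to 6 at a q of 0.01. No paired analysis was possible because the tables hold 1 value per group, and leaving out a replicate was not run for the same reason. Read depth per library is unknown, so the precision of low values such as 0.154 FPKM cannot be given.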
